A study of Mus musculus with 55 samples.

Results

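The colony stimulating factor genes and the genes of their receptors were followed in mouse macrophages by ChIP-seq, which pulls down chromatin with an antibody and counts the sequenced fragments (tags) at each site. The 8 genes were Csf1, Csf2 and Csf3 for the factors and Csf1r, Csf2ra, Csf2rb, Csf2rb2 and Csf3r for the receptor chains. Their members in the data were the open chromatin regions (sites found accessible by ATAC-seq) that the deposited annotation gives to one of these genes at 100 kb or less from its start. There were 52 such regions out of 86543 regions within that distance and 97113 in all, and no region of these genes lay farther away. Csf1 had 12 regions, Csf2ra 11, Csf1r 9, Csf3r 7, Csf3 4, and Csf2, Csf2rb and Csf2rb2 had 3 each. Each region was counted for H3K27ac, an acetylated histone mark of active promoters and enhancers, in a window of 1000 bases, and for p300, an acetyltransferase recruited to active enhancers, in a window of 200 bases.

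Colony stimulating factors are secreted proteins that keep myeloid cells alive and drive their growth and maturation. M-CSF, the product of Csf1, binds the receptor tyrosine kinase encoded by Csf1r, on which the survival of most macrophages depends. GM-CSF, from Csf2, binds an alpha chain (Csf2ra) that pairs with the common beta chain (Csf2rb), which the receptors for interleukin-3 and interleukin-5 also use and which signals through JAK2 and STAT5. Mice carry a second beta chain gene, Csf2rb2, whose product serves interleukin-3 only and whose sequence is nearly the same as that of Csf2rb. G-CSF, from Csf3, binds the receptor encoded by Csf3r, best known from neutrophils, which signals through JAK kinases and STAT3 and is restrained by SOCS3. Macrophages exposed to bacterial products are known to make all 3 factors.

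The cells were macrophages grown from bone marrow of C57BL/6 mice with L-cell conditioned medium as the M-CSF source and kept in M-CSF, then starved of serum overnight. Every group, vehicle included, had therefore been grown with the ligand of Csf1r. The cells received PBS as vehicle, 3'-sialyllactose (3'SL, a sugar of human milk) at 100 µg/ml, lipopolysaccharide (LPS, a bacterial wall component that triggers Toll-like receptor 4) at 10 ng/ml, or 3'SL with LPS, for 2 or 6 h. For each group 2 libraries were analysed, except for PBS at 6 h for H3K27ac and PBS at 2 h and at 6 h for p300, where only replicate 2 was. The replicate 1 libraries of these 3 groups matched no single column of the tables and were not analysed here. For 3 H3K27ac libraries of replicate 1 titled 2 h (3'SL, LPS and 3'SL with LPS) another label says 1 h, and the titles were followed. The replicate 2 H3K27ac library titled 3'SL with LPS at 2 h carries a treatment label of vehicle, and its title was followed as well. The labels do not say that the replicates came from separate animals or cultures, so p-values measure the spread between these libraries, which may be technical. The open chromatin regions came from macrophages of another study, untreated or given Kdo2-lipid A, the active part of LPS, so that they include sites open only under stimulation.

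The H3K27ac libraries held 4200716 to 39597624 tags and the p300 libraries 3199270 to 18130439. Replicate 2 had 72.4 to 79.3% of its H3K27ac tags in open chromatin regions against 53.9 to 64.8% for replicate 1 among the libraries tested, and 20.1 to 27.5% of its p300 tags against 6.12 to 9.42%. The PBS library without a time, which stayed out of the tests, had 42.6% in H3K27ac. The shallowest library was p300 under PBS at 2 h, the only vehicle library of that time analysed here. Values below are normalised tags, scaled for depth and for the share of tags in regions. Markers of macrophages were high in every library, with H3K27ac summed over 7 genes between 8613 and 13730 normalised tags. The 3 T cell and 3 B cell markers had no region. The 6 neutrophil markers, which belong to the cell type best known for Csf3r, summed to 36.0 to 133.0 normalised tags of H3K27ac under PBS at 2 h and 83.7 to 186.2 under LPS. None of the 6 tested for H3K27ac or of the 5 tested for p300 was called. At 2 h all 6 had an H3K27ac change above 0 (median log2 0.65 against 0.09 over all genes). For p300 it was 3 of the 5 (median 0.45 against 0.11). The part of the neutrophil markers in the Csf3r results was not tested. The 4 dendritic cell markers summed to 592.1 to 1420 normalised tags of H3K27ac under PBS at 2 h and 1266 to 1998 under LPS, and to 333.8 of p300 under PBS and 559.5 to 810.7 under LPS. Of these, Ccr7 was called higher for H3K27ac at 2 h (log2 2.63, limma adjusted p = 0.027, edgeR adjusted p = 0.0281) and Xcr1 for p300 by limma alone (2.07, adjusted p = 0.03, edgeR 0.0842). At 2 h 3 of the 4 markers had a change above 0 in each mark. Flt3 went the other way without a call (log2 −0.74 for H3K27ac and −0.80 for p300). The part of the dendritic cell markers in the results was not tested.

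Sequences of 5 regions are shown. Those of Csf3r, Csf2rb and Csf2 were called by limma under LPS at 2 h, and that of Csf2rb2 is a near-identical copy of the Csf2rb region. The Csf1 region was called in neither mark and was chosen after its values were seen. Each sequence is the 201-base p300 window on the plus strand of GRCm38, read 5′ to 3′ from the RefSeq assembly. Capitals mark matches on either strand to GGG and CC with any 5 bases between them (a motif of NF-kB), TGANTCA (AP-1), GAGGAA (PU.1), TTGCNNAA (C/EBP), GAAA and GAAA with any 2 bases between them (the interferon-stimulated response element, ISRE) or TTCNNNGAA (STAT). The first lies at chr4:126004183-126004383, 20.4 kb upstream of Csf3r and outside any gene, and its capitals are, in order, an ISRE, a PU.1 and a STAT match.
Csf3r, 20.4 kb upstream: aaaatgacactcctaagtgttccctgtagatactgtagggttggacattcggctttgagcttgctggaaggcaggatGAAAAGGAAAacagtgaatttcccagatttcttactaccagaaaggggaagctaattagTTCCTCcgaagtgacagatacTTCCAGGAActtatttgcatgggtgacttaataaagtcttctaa
The second lies at chr15:78334482-78334682 in intron 2 of Csf2rb, 8.6 kb after its start, and holds an AP-1, an NF-kB, a second NF-kB and a STAT match. The third lies at chr15:78298750-78298950 in intron 1 of Csf2rb2, 6.9 kb after its start, and holds the same 4 matches in the reverse order.
Csf2rb, 8.6 kb downstream: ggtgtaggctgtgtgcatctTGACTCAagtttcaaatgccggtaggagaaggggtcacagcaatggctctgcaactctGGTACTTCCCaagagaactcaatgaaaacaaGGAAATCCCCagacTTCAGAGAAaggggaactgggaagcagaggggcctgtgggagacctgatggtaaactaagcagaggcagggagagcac
Csf2rb2, 6.9 kb downstream: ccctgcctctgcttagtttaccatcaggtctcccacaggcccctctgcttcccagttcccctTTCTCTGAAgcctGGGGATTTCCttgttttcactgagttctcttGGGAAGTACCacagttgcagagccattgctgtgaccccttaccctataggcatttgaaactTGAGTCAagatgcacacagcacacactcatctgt
The fourth lies at chr11:54237078-54237278, 12.7 kb downstream of the Csf2 start in a stretch annotated as intergenic, where it overlaps the RefSeq gene Gm12223. It holds a PU.1 match, NF-kB letters on both strands at overlapping positions, another PU.1 match and a C/EBP match.
Csf2, 12.7 kb downstream: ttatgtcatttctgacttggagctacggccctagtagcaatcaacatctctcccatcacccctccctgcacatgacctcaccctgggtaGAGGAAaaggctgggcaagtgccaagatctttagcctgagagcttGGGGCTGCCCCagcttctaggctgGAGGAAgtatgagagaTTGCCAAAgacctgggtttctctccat
The last lies at chr3:107775747-107775947, 15.4 kb upstream of Csf1 in a stretch annotated as intergenic, within the predicted gene Gm40121, and holds 3 NF-kB matches of which the last pair overlaps.
Csf1, 15.4 kb upstream: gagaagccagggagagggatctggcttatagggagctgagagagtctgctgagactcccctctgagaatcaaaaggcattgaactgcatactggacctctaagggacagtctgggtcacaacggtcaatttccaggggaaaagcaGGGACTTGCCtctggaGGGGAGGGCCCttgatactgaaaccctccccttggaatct

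These letters are common and are given as a description of the windows. Of all 97113 windows of the same length, 32.8% hold the NF-kB letters, 36.6% those of PU.1, 17.2% AP-1, 10.3% C/EBP, 5.73% STAT and 3.27% ISRE. Among the 43 windows of the 7 member genes whose sequence was read, the shares were 46.5%, 44.2%, 18.6%, 9.3%, 16.3% and 9.3%, respectively. The windows in Csf2rb and Csf2rb2 were identical at 184 of 193 aligned bases (95.3%), one being the reverse complement of the other on the plus strand. Reads of the beta chain genes could therefore have been assigned to either copy, and the values of Csf2rb and Csf2rb2 are uncertain to that extent.

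Csf1r stood highest among the 8 genes in acetylation and the factor genes Csf1 and Csf2 lowest. Per region, as the median over 15 libraries, H3K27ac was 254.8 normalised tags at Csf1r, 165.1 at Csf2rb2, 118.5 at Csf2rb, 116.2 at Csf2ra, 84.2 at Csf3r, 75.5 at Csf3, 15.5 at Csf1 and 4.49 at Csf2. The ranges over libraries of neighbours in this order overlapped, except that Csf3, at 46.5 to 274.5, lay above Csf1, at 2.06 to 37.2. For p300 the order was Csf2rb2 with 82.4 normalised tags per region, Csf3r 51.8, Csf1r 49.8, Csf3 43.2, Csf2rb 42.1, Csf2 21.7, Csf2ra 15.3 and Csf1 11.8. All neighbours in this second order overlapped, and Csf3r came next to the top for p300 and in the middle for H3K27ac.

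**Figure D1:**
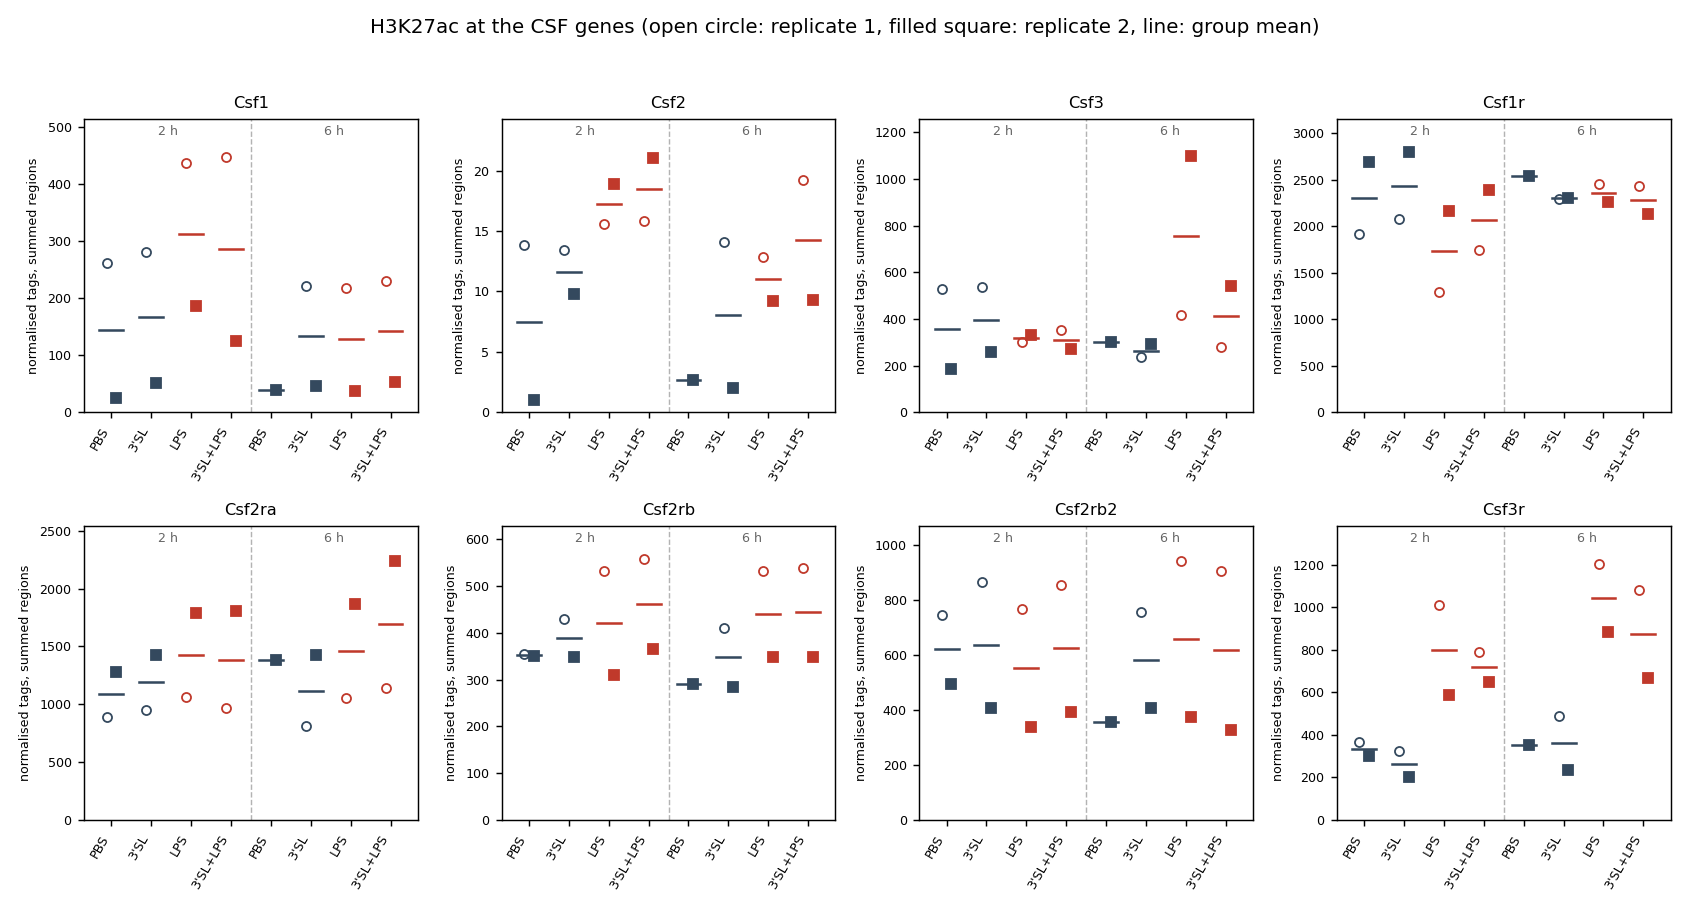
H3K27ac summed over the regions of each gene (y axis, normalised tags) in the 8 groups of treatment and time (x axis). Open circles are replicate 1, filled squares replicate 2 and lines group means. At Csf3r every LPS library, with or without 3'SL, lies above every PBS library, while Csf1r stays between 1294 and 2795 in all libraries.

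**Figure D2:**
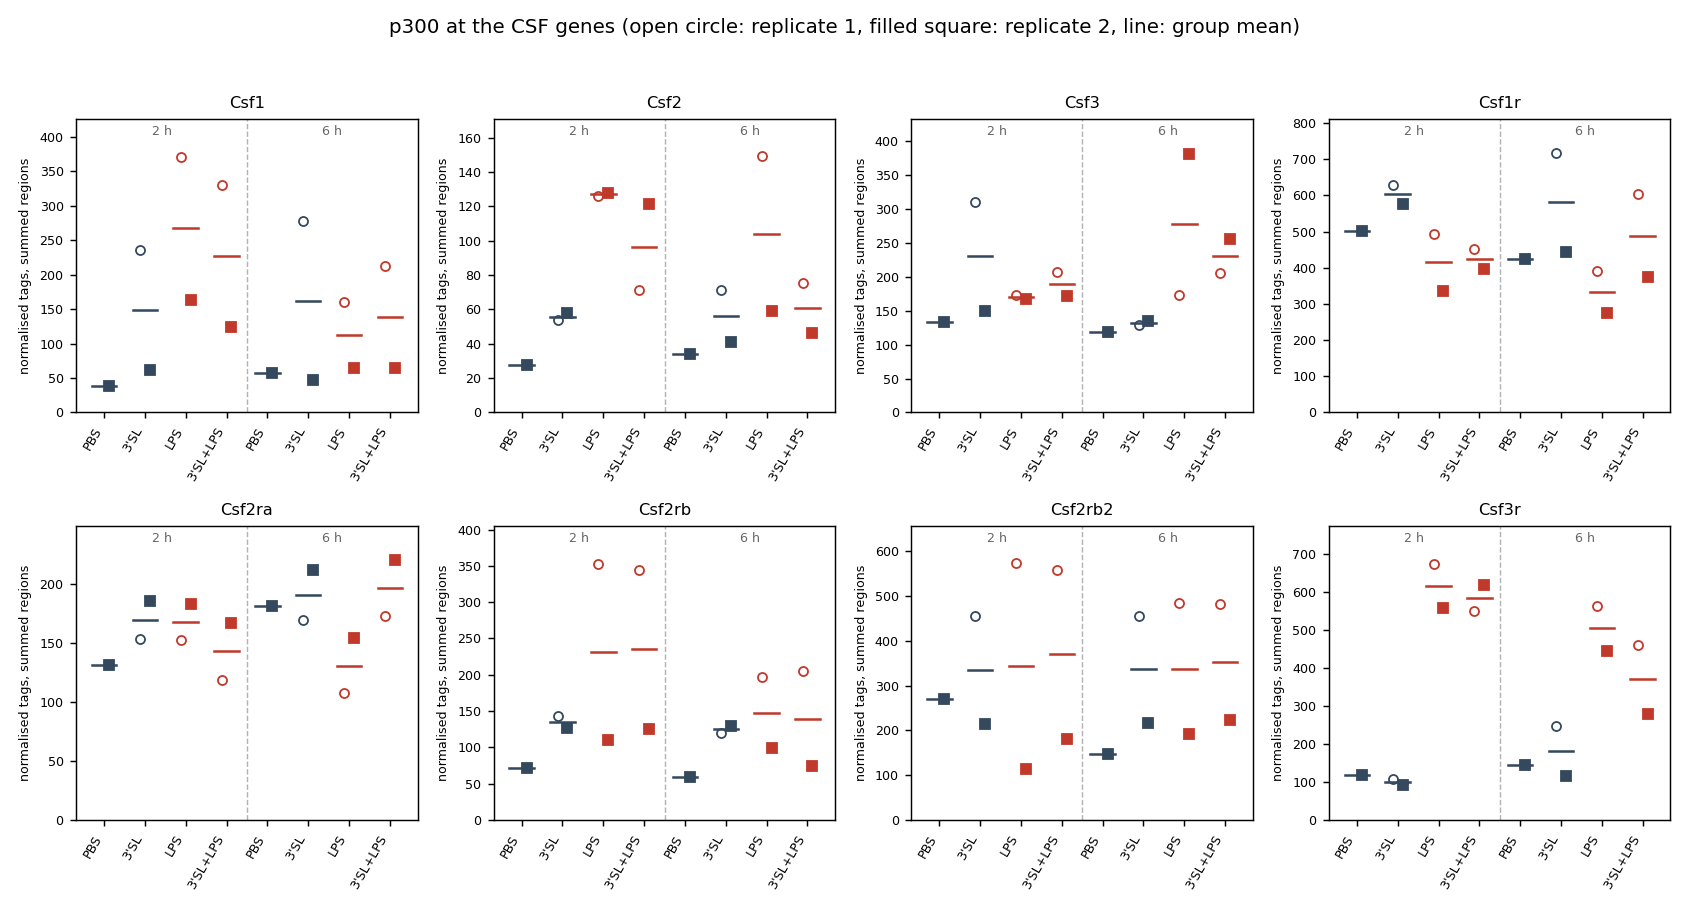
p300 summed over the regions of each gene (y axis, normalised tags) in the same groups (x axis), with open circles for replicate 1, filled squares for replicate 2 and lines for group means. At Csf3r the 4 LPS libraries at 2 h lie between 551.1 and 674.4 against 118.3 under PBS. At Csf1, Csf2rb and Csf2rb2 the circles lie well above the squares under LPS in these normalised tags. On the authors' scale the order of the replicates at Csf1 under LPS alone is the reverse.

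Few of the regions were called under LPS, and those called had more signal. Each library pools many cells, so more signal in every cell and signal in more of the cells cannot be told apart. A region or gene was called at a Benjamini-Hochberg adjusted p under 0.05 from limma over all features tested. Of 48 member regions tested for H3K27ac at 2 h, 2 were called higher under LPS than under PBS and none lower, beside 5.14% called among all regions, while 8 had an unadjusted p under 0.05. The median log2 change was 0.29 over the member regions and 0.01 over all regions. Both called regions belong to Csf3r, and edgeR's quasi-likelihood test on the recovered tag counts also called them. Of 46 member regions tested for p300 at 2 h, 3 were called higher, at Csf3r, Csf2rb and Csf2, beside 2.33% of all regions. In that mark 11 member regions had an unadjusted p under 0.05, and the median change was 1.20 against 0.11 over all regions. edgeR called none of the 46, nor did limma on the authors' own scaling, and over all regions it called 79 where limma called 1447. The p300 calls at the genes of this family rest on limma and on the 1 shallow vehicle library analysed. That library is replicate 2, while both LPS replicates enter, so replicate and treatment are mixed in the p300 changes.

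Summed over a gene's regions, H3K27ac gave 0 calls among the 8 genes at 2 h with limma and with edgeR, beside 5.78% of all genes, and 1 gene (Csf3r) had an unadjusted p under 0.05. For p300 at 2 h, 1 of 8 genes was called by limma (Csf3r) and none by edgeR, beside 1.74% of all genes, and 3 had an unadjusted p under 0.05. At 6 h no member region was called for H3K27ac (0.676% of all regions) or p300 (0.423%), and no gene (0.569% and 0.14% of all genes). edgeR gave 0 as well in these 4 comparisons, and unadjusted p-values under 0.05 were found at 5 and 7 regions and at 1 and 2 genes. The direct comparison of LPS at 6 h with LPS at 2 h called 0 members with both tools and 0% of all regions and genes in both marks, with 2 H3K27ac and 3 p300 regions at an unadjusted p under 0.05. No member differed in its LPS effect between 6 and 2 h in a test of the difference itself, by limma, where 2 p300 regions and no H3K27ac region or gene had an unadjusted p under 0.05.

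**Figure D3:**
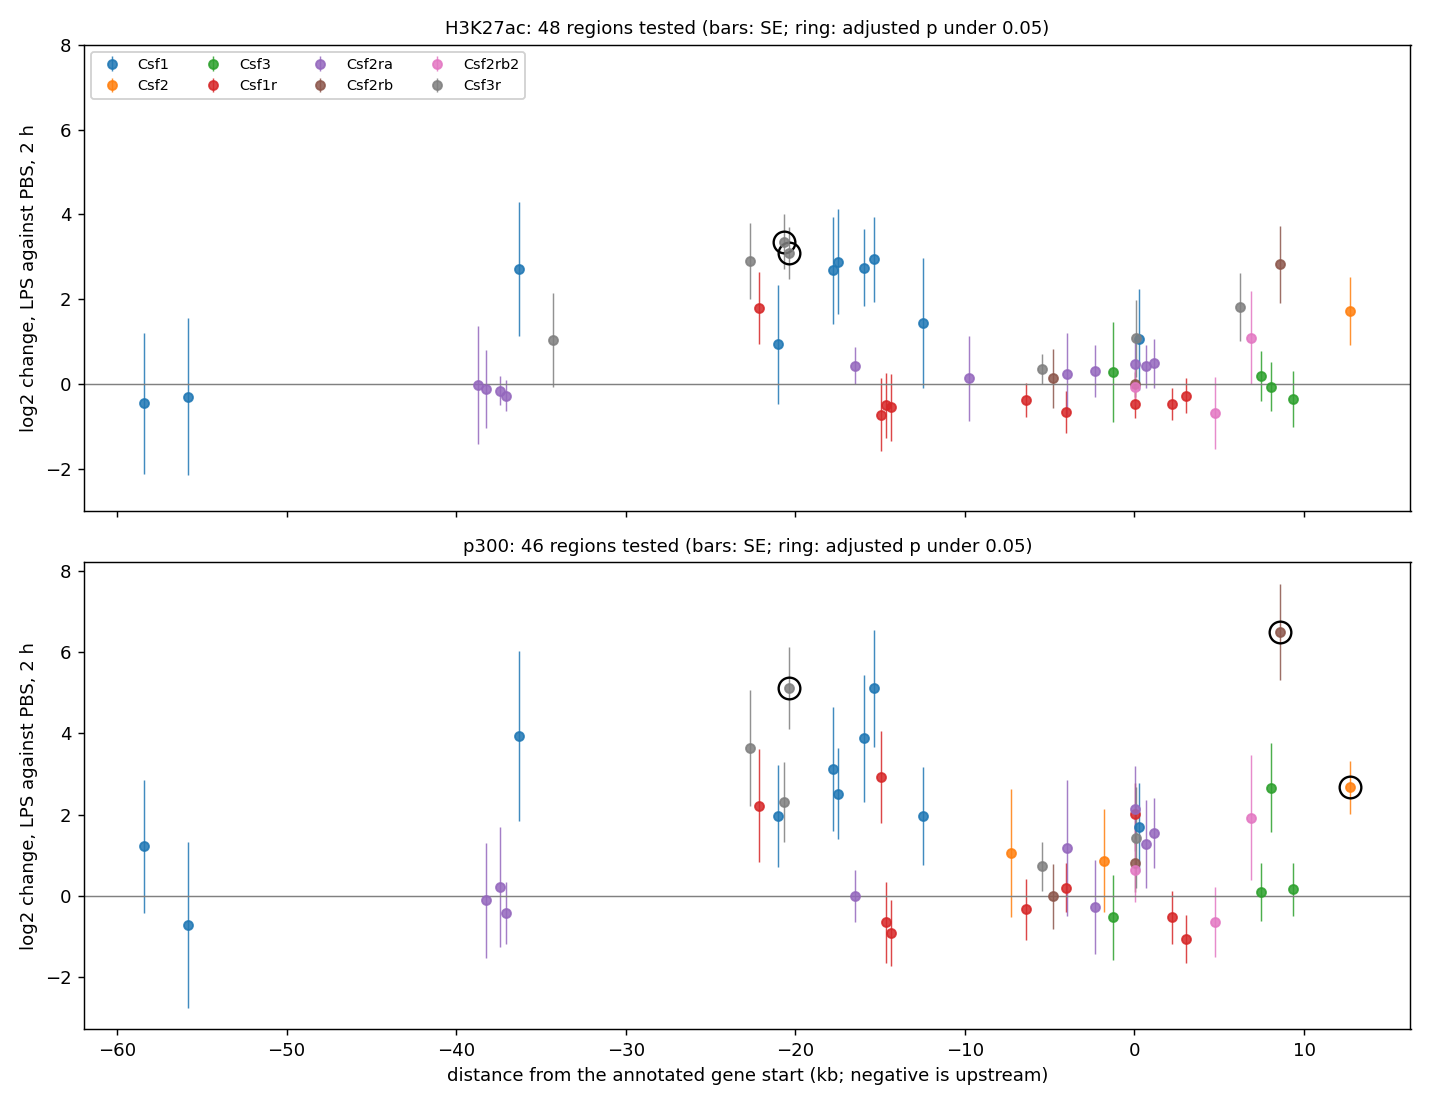
Log2 change under LPS against PBS at 2 h (y axis) of each member region tested, by its distance from the gene start in kb (x axis, negative is upstream), for H3K27ac (top, 48 regions) and p300 (bottom, 46 regions). Colours are genes, bars are standard errors and rings mark an adjusted p under 0.05 from limma. The ringed regions lie about 20 kb upstream of Csf3r and, for p300, also inside Csf2rb and downstream of Csf2.

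Csf1 (chromosome 3, 107741048 to 107760469 of GRCm38) encodes M-CSF. Its summed H3K27ac in replicates 1 and 2 was 262.3 and 24.7 normalised tags under PBS at 2 h, 437.3 and 186.3 under LPS, and 446.2 and 125.2 under 3'SL with LPS. Both replicates were higher under LPS, but the PBS replicates lay far apart and the groups overlapped. The log2 change under LPS was 1.80 (SE 1.34, adjusted p = 0.538), with 0.74 in replicate 1 and 2.87 in replicate 2. At 6 h the values were 39.2 under PBS, replicate 2, and 217.7 and 38.0 under LPS. Replicate 2 thus did not differ from its vehicle (log2 −0.04). On the authors' scale the H3K27ac inputs, which had no antibody step, held 57.7 to 91.7 tags at Csf1. Replicate 2 held 27.7 under PBS at 2 h, and 41.6 under PBS and 39.1 under LPS at 6 h. These 3 sums lay below the inputs, so the replicate 2 change of 2.87 starts from the background. p300 at Csf1 was 38.0 under PBS at 2 h, 371.1 and 163.3 under LPS, and 160.6 and 65.2 under LPS at 6 h, next to 57.6 for PBS. That difference at 2 h was 2.66 on the log2 scale (SE 1.08, adjusted p = 0.285). The vehicle was replicate 2 alone, within which p300 was 38.0 under PBS and 163.3 under LPS. Replicate 1 was also the higher in normalised tags under 3'SL alone at 2 h, at 235.3 against 61.9. This order depends on the scaling. On the authors' scale replicates 1 and 2 had 103.9 and 105.9 under 3'SL at 2 h, and 178.3 and 217.4 under LPS. With its vehicle of replicate 2 alone, the difference of 2.66 mixes replicate and treatment. On the authors' scale the p300 input held 49.15 tags at Csf1. PBS at 6 h held 76.0 there, and LPS at 6 h 53.1 in replicate 1 and 81.6 in replicate 2. The 160.6 normalised tags of LPS replicate 1 at 6 h were thus near the background.

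Within Csf1, 4 regions between 15.4 and 17.8 kb upstream are described, which were chosen after their values were seen. The region at 15.4 kb, the last sequence above, had 5.5 and 1.0 normalised tags of H3K27ac under PBS at 2 h, 31.1 and 23.3 under LPS and 44.9 and 11.4 under 3'SL with LPS. At 6 h it had 5.0 and 5.2 under LPS and 0.9 under PBS. Its log2 change at 2 h was 2.94 (SE 0.99, adjusted p = 0.124), and the LPS libraries lay above the PBS libraries. p300 in its window was 0 under PBS at 2 h, 1.4 and 0 under 3'SL, 58.2 and 19.1 under LPS and 53.6 and 17.0 under 3'SL with LPS. Pooled over both replicates, counting alone put these at least 6.19-fold and at least 5.49-fold above the replicate 2 vehicle. These bounds mix replicate and treatment and need not hold within replicate 2, where the values were 19.1 and 17.0 against 0. The floor was 3 tags over the vehicle group. Under LPS at 6 h both libraries were at 0. The test did not call the p300 difference at 2 h (limma adjusted p = 0.0783, edgeR adjusted p = 0.236). The other regions of the stretch, at 16.0, 17.5 and 17.8 kb, had adjusted p-values of 0.118, 0.233 and 0.278 for H3K27ac. The region at the Csf1 start had 32.3 and 9.2 normalised tags of H3K27ac under PBS and 115.8 and 11.6 under LPS at 2 h, a difference of 1.06 (adjusted p = 0.713) that came from replicate 1.

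Csf2 (chromosome 11, 54247270 to 54249899) encodes GM-CSF and had almost no acetylation. Its summed H3K27ac was 13.9 and 1.0 normalised tags under PBS at 2 h, 15.6 and 18.9 under LPS, and 15.8 and 21.1 under 3'SL with LPS. On the authors' scale the 3 regions held 14.0 to 20.5 tags in the H3K27ac input libraries, which had no antibody step, so these sums were near the background. p300 was clearer in normalised tags, with 27.5 under PBS at 2 h, 53.8 and 57.6 under 3'SL, 126.0 and 128.0 under LPS, and 71.4 and 121.2 under 3'SL with LPS. On that scale all treated libraries lay above the vehicle library analysed, and both LPS libraries above both 3'SL libraries. On the authors' scale this order did not hold. There PBS had 40.6, 3'SL 23.8 and 98.7, LPS 60.55 and 170.4, and 3'SL with LPS 30.9 and 185.1. The log2 change in normalised tags under LPS was 2.17 (SE 0.61), with an adjusted p of 0.0971 from limma and 0.215 from edgeR. At 6 h p300 was 34.1 under PBS and 149.4 and 58.9 under LPS (log2 1.43, SE 0.61, adjusted p = 0.563).

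Most of this p300 lay in the region 12.7 kb downstream of the Csf2 start, the fourth sequence above. It had 14.8 normalised tags under PBS at 2 h, 31.2 and 39.4 under 3'SL, 92.8 and 107.4 under LPS, and 60.0 and 96.9 under 3'SL with LPS. The LPS libraries were the highest and did not overlap with any other group at 2 h except replicate 2 of 3'SL with LPS. This region rose under LPS by 2.67 on the log2 scale (SE 0.65, limma adjusted p = 0.0387), and by 2.78 within replicate 2. It did not pass edgeR (adjusted p = 0.184), and the limma call ended without either LPS library (adjusted p 0.13 and 0.16), with a pseudocount of 5 (0.0555) and with no filter on low values (0.0516). At 6 h the values were 27.7 under PBS and 118.2 and 57.6 under LPS (log2 1.54, adjusted p = 0.447). H3K27ac in the same region was 5.5 and 1.0 under PBS and 7.4 and 16.0 under LPS (log2 1.72, SE 0.80, adjusted p = 0.272). No open chromatin region lay at the Csf2 start itself. The nearest, 1.8 kb upstream, was too low in H3K27ac to be tested.

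Csf3 (chromosome 11, 98700183 to 98703631) encodes G-CSF. Its summed H3K27ac was 530.2 and 186.0 normalised tags under PBS at 2 h and 301.9 and 331.9 under LPS, lower in replicate 1 and higher in replicate 2. The 2 h change was 0.01 (SE 0.58, adjusted p = 0.996). At 6 h the values were 301.9 under PBS, 416.2 and 1098 under LPS, and 282.3 and 542.2 under 3'SL with LPS. The highest library of all was thus LPS at 6 h, replicate 2, and the difference from PBS at that time was 1.16 (SE 0.71, adjusted p = 0.578), 1.86 within replicate 2. For p300 the same library was the highest, with 133.1 under PBS and 173.1 and 167.7 under LPS at 2 h, and 118.4 under PBS and 174.0 and 381.0 under LPS at 6 h. The 6 h difference in p300 was 1.11 (SE 0.52, adjusted p = 0.602).

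Nearly all signal of Csf3 came from 3 regions 7.5 to 9.3 kb after its start, which lie in introns of the neighbouring gene Med24, a subunit of the Mediator complex, so that their assignment to Csf3 rests on distance alone. The region nearest the Csf3 start, 1.3 kb upstream, had 6.5 and 0 normalised tags of H3K27ac under PBS at 2 h and 5.4 and 0.7 under LPS. The region at 8.1 kb, chosen after its values were seen, had 126.5 under PBS at 6 h and 179.9 and 523.2 under LPS (log2 1.27, adjusted p = 0.49). Its p300 at 2 h was 4.2 under PBS and 29.1 and 35.3 under LPS, a ratio of 7.6 with a 95% counting interval from 1.98 to 64.6 and an adjusted p of 0.255.

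Csf3r (chromosome 4, 126023441 to 126044975), the receptor of G-CSF, was the only one of the 8 genes called on its summed signal. Its summed H3K27ac was 368.6 and 299.0 normalised tags under PBS at 2 h, 325.5 and 202.4 under 3'SL, 1013 and 589.5 under LPS, and 789.9 and 649.1 under 3'SL with LPS. At 6 h it was 350.9 under PBS, 490.2 and 234.4 under 3'SL, 1206 and 883.8 under LPS, and 1082 and 667.7 under 3'SL with LPS. The PBS library without a time in its label, which stayed out of the tests, had 547.2. All 8 libraries with LPS lay above all 8 libraries without it. The log2 difference between LPS and PBS was 1.22 at 2 h (SE 0.42, adjusted p = 0.128, 1.46 and 0.98 within replicates 1 and 2) and 1.55 at 6 h (SE 0.51, adjusted p = 0.240). p300 at Csf3r was 118.3 under PBS at 2 h, 107.7 and 92.8 under 3'SL, 674.4 and 559.1 under LPS, and 551.1 and 618.0 under 3'SL with LPS. It rose under LPS at 2 h by 2.37 (SE 0.48, limma adjusted p = 0.0277) and by 2.29 under 3'SL with LPS (adjusted p = 0.0339). edgeR called neither (adjusted p = 0.0842 and 0.101), and limma's call did not hold without either LPS library. At 6 h the p300 values were 145.0 under PBS and 564.3 and 446.1 under LPS, a difference of 1.78 (SE 0.48, adjusted p = 0.236).

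Within Csf3r the H3K27ac regions called were a pair of neighbours about 20 kb upstream, whose 1000-base H3K27ac windows overlap and share tags. At the region 20.4 kb upstream, the first sequence above, H3K27ac was 9.2 and 22.6 normalised tags under PBS at 2 h, 14.3 and 6.5 under 3'SL, 119.1 and 144.1 under LPS, and 125.3 and 169.9 under 3'SL with LPS. At 6 h it was 19.6 under PBS, 17.4 and 4.0 under 3'SL, 178.5 and 171.8 under LPS, and 134.2 and 152.6 under 3'SL with LPS. Every library with LPS was above every library without it, by a wide margin. H3K27ac rose under LPS at 2 h by 3.09 (SE 0.61, limma adjusted p = 0.017, edgeR adjusted p = 0.0182), with 3.55 and 2.62 within replicates 1 and 2. The 6 h difference was 3.10 (adjusted p = 0.0949), against the 1 vehicle library analysed. The region at 20.7 kb rose by 3.36 (SE 0.66, limma adjusted p = 0.0157, edgeR adjusted p = 0.02), from 5.5 and 19.5 under PBS to 98.8 and 140.5 under LPS. Without any 1 of the 4 libraries the adjusted p at 20.4 kb was 0.053 to 0.101, and at 20.7 kb 0.0393 to 0.0973, under 0.05 only without PBS replicate 2. In these fits the lone library of a group was taken to vary like the other groups.

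p300 in the 200-base window at 20.4 kb was 10.6 under PBS at 2 h, 9.9 and 0.0 under 3'SL, 426.5 and 376.7 under LPS, and 297.2 and 425.3 under 3'SL with LPS. At 6 h it was 13.9 under PBS, 17.8 and 5.0 under 3'SL, 285.5 and 193.0 under LPS, and 221.5 and 138.9 under 3'SL with LPS. The libraries with LPS lay more than an order of magnitude above those without it at 2 h, and at 6 h they were again the higher ones. p300 rose by 5.12 at 2 h under LPS (SE 1.01, limma adjusted p = 0.0127), by 5.03 within replicate 2, and by 4.95 under 3'SL with LPS (adjusted p = 0.0170). edgeR gave adjusted p-values of 0.0785 and 0.0937, and limma 0.0604 to 0.0809 without 1 of the 2 LPS libraries. The 6 h difference was 3.99 (adjusted p = 0.111). This single window held between 0.0 and 68.8% of the p300 tags of Csf3r, with a median of 45.7% over libraries. The neighbour at 20.7 kb had 6.3 under PBS and 37.4 and 33.8 under LPS (log2 2.32, adjusted p = 0.27).

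**Figure D4:**
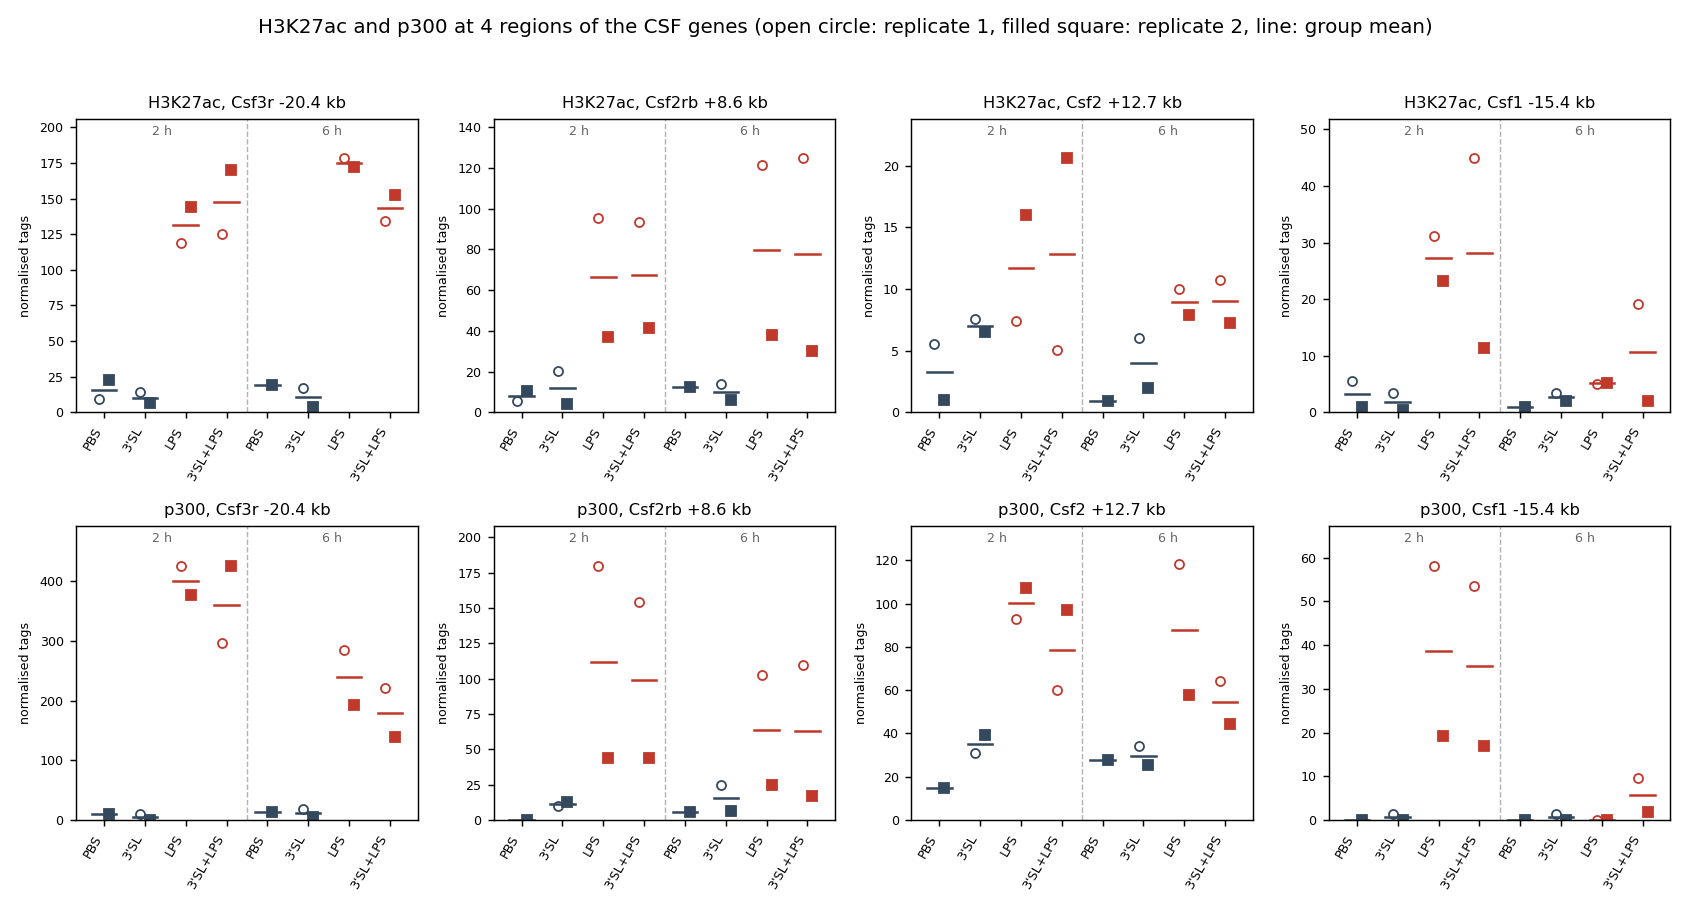
H3K27ac (top) and p300 (bottom) in normalised tags (y axis) at the regions 20.4 kb upstream of Csf3r, 8.6 kb inside Csf2rb, 12.7 kb downstream of Csf2 and 15.4 kb upstream of Csf1, by treatment and time (x axis). Open circles are replicate 1, filled squares replicate 2 and lines group means. p300 at Csf3r is 376.7 to 426.5 under LPS at 2 h and 193.0 to 285.5 at 6 h, while at Csf1 it is 0 in both LPS libraries at 6 h. The Csf1 region was called in neither mark and was chosen after its values were seen.

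None of the remaining Csf3r regions was called. At its start, H3K27ac was 198.6 and 64.7 normalised tags under PBS at 2 h and 481.3 and 120.8 under LPS, higher within each replicate but overlapping between groups (log2 1.08, adjusted p = 0.596). At 6 h it was 70.3 under PBS and 471.2 and 232.1 under LPS (log2 2.22, adjusted p = 0.438). The region 22.7 kb upstream, chosen after its values were seen, had 1.8 and 0 under PBS and 10.8 and 12.4 under LPS at 2 h, a ratio of 11.9 with a 95% counting interval of 3.04 to 102 (adjusted p = 0.092). The region 5.5 kb upstream, in the stretch of Gm32908 and also chosen after its values were seen, had 151.5 and 190.1 under PBS and 286.4 and 165.9 under LPS (log2 0.36, adjusted p = 0.666).

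Csf1r (chromosome 18, 61105572 to 61131139), the M-CSF receptor, had 1917 and 2695 normalised tags of summed H3K27ac under PBS at 2 h. Its sum was the highest of the 8 genes in all libraries but 3'SL with LPS at 6 h, replicate 2, where Csf2ra was higher. Under LPS at 2 h the values were 1294 and 2170, lower within both replicates, and under 3'SL with LPS 1746 and 2388. The groups overlapped, and the log2 change was −0.44 (SE 0.30, adjusted p = 0.493), with −0.57 and −0.31 within replicates 1 and 2. Of its 9 regions, 8 had a log2 change below 0 at 2 h and none passed the test, while 50.6% of all regions had a change above 0. Several of the Csf1r windows overlap and share tags, so their directions are not independent. At 6 h Csf1r was at 2544 under PBS and 2457 and 2257 under LPS (log2 −0.11, adjusted p = 0.946). p300 was 500.7 under PBS at 2 h and 494.4 and 337.0 under LPS (log2 −0.29, SE 0.45, adjusted p = 0.877).

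At the Csf1r start the values of the marks lay in opposite directions, and neither was called. H3K27ac there was 349.2 and 448.0 under PBS and 217.3 and 374.8 under LPS at 2 h (log2 −0.47, adjusted p = 0.515). p300 in the same place was 8.5 under PBS and 41.6 and 33.8 under LPS (log2 2.03, SE 0.76, adjusted p = 0.202). The exception among the 9 regions lay 22.2 kb upstream at the 3′ end of Pdgfrb, a receptor tyrosine kinase of the same family, and was chosen after its values were seen. It had no H3K27ac tags under PBS at 6 h, replicate 2, and 27.1 and 13.1 normalised tags under LPS (adjusted p = 0.0901). Pooled over both LPS replicates, counting alone put this at least 8.31-fold above the replicate 2 vehicle. That bound mixes replicate and treatment and need not hold within replicate 2, where the values were 0 and 13.1. At 2 h it had 4.6 and 5.1 under PBS and 14.2 and 26.2 under LPS (log2 1.79, adjusted p = 0.281).

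Csf2ra (chromosome 19, 61217191 to 61228461), the alpha chain of the GM-CSF receptor, differed more between replicates than between treatments. Its summed H3K27ac was 893.2 and 1278 normalised tags under PBS at 2 h, 1059 and 1793 under LPS, and 965.3 and 1809 under 3'SL with LPS. Replicate 2 was the higher in every pair, and the change under LPS was 0.37 (SE 0.48, adjusted p = 0.760). At 6 h it was 1387 under PBS and 1051 and 1863 under LPS (log2 0.01, adjusted p = 0.997). Most of this acetylation stood in 3 regions at the start and in the first introns, of which the nearest to the start had 98.8 and 175.7 under PBS and 131.3 and 260.5 under LPS at 2 h (log2 0.49, adjusted p = 0.747). p300 at Csf2ra was low, with 131.0 under PBS at 2 h and 152.3 and 182.5 under LPS (log2 0.35, SE 0.42, adjusted p = 0.835). On the authors' scale the p300 input held 60.7 tags there and the replicate 1 libraries 35.4 to 84.3. The replicate 1 values were thus near the background.

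Csf2rb (chromosome 15, 78325800 to 78351001), the common beta chain, held its acetylation at the start while p300 inside the gene was higher under LPS. Its summed H3K27ac was 355.6 and 350.4 normalised tags under PBS at 2 h and 532.8 and 310.8 under LPS, with a change of 0.20 (SE 0.36, adjusted p = 0.831). The start region accounted for most of it, with 318.7 and 320.6 under PBS and 402.1 and 252.5 under LPS, which were higher in replicate 1 and lower in replicate 2 (log2 0.00). In the intron region 8.6 kb after the start, the second sequence above, H3K27ac was 5.5 and 10.3 under PBS, 20.2 and 4.2 under 3'SL, 95.4 and 37.1 under LPS and 93.7 and 41.3 under 3'SL with LPS. The LPS groups did not overlap with the others, but the change of 2.82 (SE 0.91) had an adjusted p of 0.108 from limma and 0.118 from edgeR, with 3.88 and 1.76 within replicates.

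p300 in that intron window was 0 under PBS at 2 h, 9.9 and 12.6 under 3'SL, 180.0 and 44.1 under LPS, and 154.3 and 43.6 under 3'SL with LPS. In tags these were 0 in the vehicle library and 130 and 30 in the LPS libraries. Pooled over both replicates, counting alone put LPS at least 18.0-fold above the replicate 2 vehicle and 3'SL with LPS at least 15.4-fold. These bounds mix replicate and treatment and need not hold within replicate 2, where the normalised values were 44.1 and 43.6 against 0. The floor was 3 tags over the vehicle group. Both LPS libraries lay above every library without LPS, with replicate 1 several times replicate 2. It passed limma's test (adjusted p = 0.00795, and 0.00995 for 3'SL with LPS) but not edgeR's (0.15 and 0.179). Without LPS replicate 1 the adjusted p was 0.0824, and without LPS replicate 2 it was 0.0172. At 6 h p300 was 5.3 under PBS and 102.6 and 25.1 under LPS (adjusted p = 0.4). Summed over the gene, p300 at 2 h was 71.8 under PBS, 143.1 and 126.5 under 3'SL, and 353.1 and 110.4 under LPS (log2 1.45, SE 0.77, adjusted p = 0.455). On the authors' scale these sums were 106.3 under PBS, 63.2 and 216.7 under 3'SL, and 169.7 and 146.9 under LPS.

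Csf2rb2 (chromosome 15, 78282507 to 78305721), the beta chain of interleukin-3 alone, showed no call in either mark. Its summed H3K27ac was 742.6 and 495.3 normalised tags under PBS at 2 h and 767.0 and 337.7 under LPS (log2 −0.25, SE 0.67, adjusted p = 0.893). Its p300 was 270.4 under PBS and 573.3 and 114.8 under LPS, with one replicate above and the other below vehicle (log2 −0.07, SE 0.94, adjusted p = 0.989). On the authors' scale both LPS libraries, at 275.5 and 152.8, lay below the vehicle at 400.1. The copy of the Csf2rb intron window, the third sequence above, had 16.9 normalised tags of p300 under PBS at 2 h and 187.0 and 23.5 under LPS (log2 1.92, SE 1.54, adjusted p = 0.642). Its p300 at 6 h was 3.2 under PBS and 167.3 and 17.5 under LPS, a ratio of 22.3 with a 95% counting interval of 7.4 to 110 (limma adjusted p = 0.434, edgeR 0.458), with LPS replicate 1 again far above replicate 2. The ratio pools both LPS libraries against a vehicle of replicate 2 alone, so replicate and treatment are mixed in it. Within replicate 2 the values were 3.2 and 17.5. Its H3K27ac was 40.6 and 19.5 under PBS and 109.7 and 34.2 under LPS (log2 1.09, adjusted p = 0.676). Both windows had their highest p300 at 2 h in LPS replicate 1. At the starts of Csf2rb and Csf2rb2 the windows were identical at 140 of 146 aligned bases (95.9%), and the start of Csf2rb2 had 254.0 and 248.7 of H3K27ac under PBS and 298.5 and 192.9 under LPS.

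For 3'SL alone no member was called. In H3K27ac, limma and edgeR called 0 of 48 regions and 0 of 8 genes for 3'SL against PBS at 2 and 6 h, with no member at an unadjusted p under 0.05 and 0% called over all regions or genes. In p300, both tools called 0 of 46 regions and 0 of 8 genes. There limma called 0.0145% of all regions and 0.0381% of all genes at 2 h and 0% at 6 h, and 4 and 1 member regions had an unadjusted p under 0.05.

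No member was called between 3'SL with LPS and LPS alone. For 3'SL with LPS against LPS both tools called 0 member regions and 0 genes at either time, and 0% of all regions and genes, in both marks. Unadjusted p-values under 0.05 were found at 4 p300 regions at 6 h, at Csf1r, Csf2ra and Csf2rb, and at no H3K27ac region. At Csf3r the log2 difference between 3'SL with LPS and LPS was −0.11 for H3K27ac at 2 h (SE 0.42; −0.36 and 0.14 within replicates) and −0.28 at 6 h (SE 0.42; −0.16 and −0.40). For p300 at Csf3r it was −0.07 at 2 h and −0.48 at 6 h (SE 0.39), with −0.29 and −0.67 within replicates at 6 h. Csf3 at 6 h was lower by H3K27ac in both replicates (log2 −0.79, SE 0.58; −0.56 and −1.02), and p300 at Csf2 was lower by 0.66 on the log2 scale at 6 h (log2 −0.66, SE 0.50). Csf1r at 2 h was higher by H3K27ac in both replicates (log2 0.28, SE 0.30; 0.43 and 0.14). The adjusted p was 0.9999 or more for each of these differences. With these standard errors, only large effects of 3'SL on single genes could have been detected.

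Against PBS, the cells given 3'SL with LPS showed the same member calls as LPS alone at Csf3r and Csf2rb, with vehicle libraries that both comparisons share. At 2 h, 2 of 48 regions were called for H3K27ac (3.41% of all regions), both at Csf3r with changes of 3.49 and 3.24 (adjusted p = 0.0182 and 0.0188), and edgeR called both as well. Without 1 of the libraries compared, limma called none of the H3K27ac regions. For p300, 2 of 46 regions were called (1.98% of all regions), and 1 of 8 genes, Csf3r (1.71% of all genes), by limma, while edgeR called neither a region nor a gene. No gene was called for H3K27ac at 2 h (3.52% of all genes), where 1 had an unadjusted p under 0.05 and edgeR called 0. At 6 h no member was called by either tool, beside 0.103% of regions and 0.138% of genes for H3K27ac and 0.214% of regions and 0.0254% of genes for p300. At that time 5 H3K27ac regions, 5 p300 regions, 1 H3K27ac gene and 1 p300 gene had an unadjusted p under 0.05.

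Other genes of these receptors' pathways, among them ligands, receptor chains and downstream genes, were read from 3 lists. The lists were chosen by pathway but with earlier results of these data known. Their counts beside all genes are therefore a description. Of 13 tested genes of beta common receptor signalling, 5 rose in H3K27ac under LPS at 2 h, beside 5.78% of all genes called, none fell, and 12 had a change above 0. The risers were Jak2, the kinase bound to the beta chain (log2 1.77, adjusted p = 0.00349), Stat5a (1.43, 0.00779), and the STAT5 targets Cish (2.15, 0.0134), Socs1 (1.82, 0.0137) and Pim1 (1.08, 0.0273). Stat5b, the other STAT5 gene of the list, went the other way without a call (−0.25, limma adjusted p = 0.809). Cish and Socs1 encode inhibitors of the same pathway. The list's median was 1.10, against 0.09 over all genes. Of 10 genes of G-CSF receptor signalling, 3 rose, among them Socs3, which encodes the inhibitor of this receptor (2.63, adjusted p = 0.0015), and the kinase Tyk2 (2.63, 0.0133), with a list median of 0.28. Of 14 genes of Csf1r signalling, 2 rose and none fell: Il34, the other ligand of Csf1r (2.34, adjusted p = 0.00967), and the transcription factor Ets2 (1.71, 0.0137), with 6 above 0 and a median of −0.08. edgeR called the same number in each list.

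In p300 at 2 h the lists gave 2 of 13, 1 of 10 and 0 of 14 calls by limma, all higher, beside 1.74% of all genes called by limma and 0.304% by edgeR. Socs3 had a log2 change of 3.55 (limma adjusted p = 0.00153, edgeR adjusted p = 0.0131) and Cish one of 2.95 (0.0104 and 0.0471). Il5, which encodes a ligand of a beta common receptor, passed limma (5.14, adjusted p = 0.0222) but not edgeR (0.168). The list medians were 0.85, 1.08 and −0.10, against 0.11 over all genes. At 6 h Socs3 was the only gene of these lists called for H3K27ac (2.75, adjusted p = 0.0102), and none was called for p300, beside 0.569% and 0.14% of all genes.

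The deposited peak lists of other factors in macrophages given GW3965, an agonist of the liver X receptor (LXR), at 1 µM for 18 h were compared by position. Of the 52 member regions, 20 shared at least 1 base with an LXR peak (38.5%, against 23.2% of all regions within 100 kb of a start), 15 with an SREBP peak (28.8% against 22.2%) and 22 with a p300 peak (42.3% against 33.6%). Each of the 8 genes had at least 1 region in each list. The Csf2 region at 12.7 kb lay in an LXR and a p300 peak, and the Csf2rb intron region and the Csf3r regions at 20.7 and 22.7 kb in a p300 peak. The Csf3r region at 20.4 kb and the Csf1 region at 15.4 kb lay in none of the 3 lists.

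The genes whose summed H3K27ac over the 8 group means was most like that of a member are given as a description, since 8 points leave many high correlations. Csf3r was closest to Pabpc2, Bc1 and Prg4 (Pearson r 0.997 each), with 1031 of 16702 genes above 0.9. Csf3 had the fewest genes above 0.9, at 11, led by Mir6905 (0.98), Snx18 (0.975) and Acsl4 (0.942). Csf1r was closest to Abi3 (0.98), Zfp652os (0.977) and Chd3 (0.97), and Csf1 to Ngly1 (0.991), Cul4a (0.99) and Bcl7c (0.989). Csf2rb was closest to Chst11 (0.99), Rdh13 (0.987) and Gdap1l1 (0.985), and Csf2rb2 to Olfr100 (0.981), Zpr1 (0.968) and Sync (0.96). Csf2 was closest to Mir704 (0.984) and Mrpl24 (0.983), and Csf2ra to Mir6979 (0.98), Fbxo33 (0.968) and Pla2g16 (0.963).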

How the data were processed

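The authors deposited 1 table of H3K27ac and 1 of p300, each giving for every open chromatin region the ChIP-seq signal (coverage) as tags in a window scaled to 10000000 tags per library, per the file headers. Reads were mapped to mm10 with Bowtie2 and counted with HOMER, per the submitters' processing notes (versions not given in the sources used here). DESeq2 is also named there, with no role. The deposited LXR, SREBP and p300 peak lists were used by position alone, without their scores.

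Multiplying by library size gave whole tags for 100% of values (tolerance 0.05). Regions and genes passing edgeR's filterByExpr were kept. Values were rescaled by tags in kept regions and TMM factors, and limma 3.58.1 (trended empirical Bayes) was fitted on log2(value + 1) over 8 groups, 15 H3K27ac and 14 p300 libraries (7 and 6 residual degrees of freedom), two-sided, with Benjamini-Hochberg adjustment over 77387 and 62225 regions or 16703 and 15764 genes. Fold changes on this scale understate low regions. edgeR 4.0.16 on the recovered tags was an alternative. On simulated data limma made more false calls than its threshold allows for p300, where vehicle is 1 shallow library, so edgeR's adjusted p stands beside p300 calls. Intervals (95%) and floors (3 tags) cover counting error only. Where the vehicle was replicate 2 alone, they pool both treated replicates against it, so replicate and treatment are mixed. Other tools were R 4.3.3, Python 3.11.15, NumPy 2.4.6, pandas 2.3.3, SciPy 1.17.1 and Matplotlib 3.10.9.

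Groups came from titles. 5 columns that matched no single sample were not used, and 1 H3K27ac column was taken as PBS at 2 h, replicate 1, although its number may not be a time. No pair of replicates differed by as little as sampling noise (chi-square per degree of freedom 8.34 to 28.3). Neighbouring H3K27ac windows overlapped at 12 places, so the tags they share count under both regions in sums. A p65 peak list was not used, because 329 of its 41220 peaks lie past the ends of GRCm38 chromosomes. Regions named by rule were the one nearest each start and those called for LPS against PBS at 2 h, and for each gene the 3 most similar genes. Other regions named were chosen after their values were seen. A few single genes of these lists are not reported here. Members and lists were chosen with earlier results of these data known. RefSeq promoters matched 5 of the 8 genes and are not shown.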

Additional observations from a re-analysis of the deposited data

How the results depend on the processing

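Of the values for single genes and regions under the alternatives, 415 kept their direction and their side of the threshold, 24 lost it, 13 passed only under the alternative and 26 changed sign. With the replicate block (the same number need not mean the same cells, and the correlation of same-numbered deviations was 0.462 to 0.67 for H3K27ac and 0.267 to 0.374 for p300), limma called more members. For LPS against PBS these were 12 H3K27ac regions and 2 genes at 2 h (beside 17807 of all 77387 regions and 23.4% of all genes) and 5 regions and 1 gene at 6 h (9.18% and 7.82%), and 3 p300 genes at 2 h (8.83%) and 3 regions and 1 gene at 6 h (2.43% and 2.61%). For 3'SL with LPS against PBS the block gave 11 H3K27ac regions and 2 genes at 2 h (19.4% of each) and 3 regions and 1 gene at 6 h (4.61% and 4.26%), and 2 p300 genes at 2 h (8.3%) and 1 region at 6 h (1.74%). For LPS at 6 against 2 h it gave 1 H3K27ac gene (1.75%) and 1 p300 region (0.138%). Under the authors' scaling and under edgeR, 0 p300 regions and 0 p300 genes were called for LPS or 3'SL with LPS against PBS at 2 h. A pseudocount of 5 gave 1 p300 region for 3'SL with LPS at 2 h and 1 for LPS at 6 h. Leaving out 1 library gave 0 to 1 H3K27ac regions for LPS at 2 h, 0 for 3'SL with LPS, 0 to 1 p300 regions for each, and 0 genes. The authors' scaling moved the median log2 change of all p300 regions at 2 h from 0.109 to −0.679, and to −0.955 at 6 h. The causes were not tested.

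The log2 changes that took both signs when 1 library was left out were, at 2 h for H3K27ac, Csf2ra (−0.01 without LPS replicate 2 to 0.71), Csf2rb (−0.22 without LPS replicate 1 to 0.59), Csf2rb2 (−0.87 to 0.04 without PBS replicate 1 and 0.34 without LPS replicate 2), Csf3 (−0.74 without PBS replicate 2 and −0.06 without LPS replicate 2 to 0.77), its region at 1.3 kb (−1.16 without PBS replicate 2 and −0.68 without LPS replicate 1 to 1.74), the Csf2rb2 start (−0.41 to 0.25 without LPS replicate 2) and the Csf1 start (−0.58 without LPS replicate 1 to 2.66). At 6 h they were Csf1 (−0.05 without LPS replicate 1 to 2.41) and Csf2ra (−0.43 without LPS replicate 2 to 0.42), and for p300 at 2 h Csf2rb2 (−1.23 to 1.08 without LPS replicate 2). Other settings also turned signs. For H3K27ac, Csf3 at 2 h was −0.06 under the authors' scaling, −0.18 in edgeR and −0.03 with no filter, its region at 1.3 kb was −0.09 in edgeR, and at 6 h Csf1r was 0.02 with the replicate block and Csf2ra −0.12 under the authors' scaling. For p300, the authors' scaling gave −0.53 at Csf2ra, −0.53 at Csf3, −0.23 at the Csf2rb2 start and −0.07 at the Csf2rb start at 2 h and −0.20 at Csf1 at 6 h, edgeR gave 0.35 at Csf2rb2 at 2 h, and the replicate block −0.02 at Csf1 at 6 h. The planned overlap with the p65 list was not run. Where 1 vehicle library was analysed it could not be left out. The p300 vehicle library analysed at 2 h had 696413 tags in regions.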
